A study of Mus musculus with 48 samples.

Results

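The genes followed here were 10 of the pericentral Wnt/beta-catenin programme of the liver, namely Glul, Slc1a2, Rhbg, Oat, Axin2, Znrf3, Rnf43, Lgr5, Tbx3 and Ctnnb1. They were taken by gene symbol, as a list put together with earlier results of these data known. All 10 were among the 11275 rows of the frozen-liver (FROZ) table, and 5 of the 10 (Glul, Slc1a2, Oat, Axin2 and Ctnnb1) were among the 6673 rows of the formalin-fixed paraffin-embedded (FFPE) table. Rhbg, Znrf3, Rnf43, Lgr5 and Tbx3 were not analysed in FFPE here. Both tables came from TempO-Seq, a targeted assay in which pairs of detector probes are ligated on their transcript, amplified and sequenced. The livers were those of 24 male B6C3F1 mice, 4 weeks old, that drank water with dichloroacetic acid (DCA, a by-product of water disinfection) for 6 days. The vehicle controls drank water without DCA (0 mg/kg-d), and the treated groups received 1.0, 2.0 or 3.5 g/L, which corresponded to 198, 313 and 427 mg/kg-d, with 6 mice in each group. Each liver gave 1 FROZ and 1 FFPE library. FROZ libraries were made from purified RNA of mixed lobes and FFPE libraries from lysed tissue sections, so the preservations also differ in the piece of liver and the form of the input.

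In the liver lobule, hepatocytes next to the central vein are held in their state by Wnt ligands and R-spondins from nearby endothelial cells. Wnt binding stabilises beta-catenin, which enters the nucleus and acts with TCF/LEF factors on target genes such as Axin2, Glul and Lgr5. The last hepatocytes that blood passes before the central vein take up glutamate and ammonium and fix them as glutamine, a scavenging step downstream of the periportal urea cycle. Axin2, Rnf43 and Znrf3 are targets that also dampen the pathway, and Ctnnb1 codes for beta-catenin itself, so it is the transducer of the signal and not one of its targets. In bulk liver, fewer cells of a type and less RNA per cell cannot be told apart.

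The changes among the 10 genes were moderate, none was 2-fold in FROZ, and those that passed the test were mostly decreases. In FROZ, 1 of 10 genes passed an FDR of 0.05 at 198 mg/kg-d (Slc1a2, lower), 4 of 10 at 313 mg/kg-d (Slc1a2, Rhbg, Oat and Axin2, all lower) and 4 of 10 at 427 mg/kg-d (Slc1a2, Rhbg and Ctnnb1 lower, Znrf3 higher). The FDR was the Benjamini-Hochberg adjusted p of limma over all 11275 genes. Of all those genes 1.56%, 26.7% and 30.1% passed at the 3 doses, so the share of the 10 genes, 40% at each of the upper 2 doses, was not far from the background. Their direction was set against that of the background. At 313 mg/kg-d, 20.5% of all genes were called higher and 6.15% lower, against 0 and 4 of the 10 genes, and at 427 mg/kg-d 22.7% were called higher and 7.33% lower, against 1 and 3 of the 10 genes. At 198 mg/kg-d the shares were 1.12% higher and 0.443% lower. The median log2 fold change of the 10 genes was -0.16, -0.12 and -0.12 at the 3 doses, beside 0.07, 0.11 and 0.10 for all genes. Rescaling the libraries by their median ratio took the median of all genes to -0.003, -0.004 and -0.007. The share of higher genes among all calls went from 71.6%, 77.0% and 75.6% to 23.4%, 48.6% and 50.0%, so the direction of the background rested on the scaling. With that scaling 0 of the 10 genes were called higher, and 2, 4 and 4 were called lower at the 3 doses in turn. No member met the study's rule for a differentially expressed gene (DEG, FDR below 0.05 and a fold change above 2), which 0.106%, 2.31% and 3.5% of all genes met.

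The library depth, recovered from the spacing of the low CPM values, was 6.69 to 9.84 M (1 M is 1000000 reads) on listed genes in FROZ (median 8.25 M) and 1.83 to 6.01 M in FFPE (median 4.72 M), and 8 FFPE libraries (1 vehicle, 4 at 198 and 3 at 313 mg/kg-d) had over 500 listed genes at 0. No FROZ library had any of the 10 genes at 0, and no FFPE library had any of the 5 genes listed there at 0. In FROZ the least read were Lgr5 (5 to 36 reads per library), Rnf43 (12 to 46) and Rhbg (12 to 59), and the other 7 had at least 86 reads in every library. Levels are log2(CPM + 1), on which changes of these low genes are understated, and they are compared only within a gene, since probes differ in yield and the study attenuated the probes of Glul and Ctnnb1.

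Glul codes for glutamine synthetase, which joins ammonium to glutamate in the outermost ring of pericentral hepatocytes and is the classical marker of the zone (chr1:153899929-153909723, plus strand, mm10). In FROZ its level ran from 7.34 through a median of 7.48 to 7.64 in the vehicle controls, and from 7.26 through 7.53 to 7.76 at 198 mg/kg-d. The middle dose had values from 7.52 through 7.68 to 8.02, and the highest dose from 7.41 through 7.65 to 7.94. The groups overlapped at every dose. The log2 fold changes were 0.02 (95% interval -0.17 to 0.22), 0.24 (0.04 to 0.43) and 0.15 (-0.05 to 0.34), with limma FDRs of 0.94, 0.072 and 0.28, so none passed. With median-ratio scaling the changes were -0.07, 0.09 and 0.00 at the 3 doses (SE 0.10 each), so the sign at 198 mg/kg-d turned, and none passed. In the annotated Glul transcripts 11.9% of the 50-base windows also lie in transcripts of 3 other genes, Glns-ps1 among them. Reads of those windows may not be separable.

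Slc1a2 codes for GLT-1, a sodium-driven glutamate transporter (chr2:102658239-102790784, plus strand), and was the member with the clearest decrease. Its FROZ level lay between 6.79 and 7.24 in the vehicle controls (median 7.01), between 6.24 and 6.81 at 198 mg/kg-d (median 6.57), between 6.13 and 6.40 at 313 mg/kg-d (median 6.35) and between 6.19 and 6.63 at 427 mg/kg-d (median 6.51). All 6 animals at 313 and all 6 at 427 mg/kg-d were below the lowest vehicle control, whereas at 198 mg/kg-d the highest animal was just above the lowest control. At 313 mg/kg-d groups without overlap were found for 11.5% of all FROZ genes, and at 427 mg/kg-d for 14.7%. The log2 fold change was -0.46 ± 0.10 (SE) at 198, -0.72 ± 0.10 at 313 and -0.57 ± 0.10 at 427 mg/kg-d, with limma FDRs of 0.020, 5.99e-06 and 6.59e-05. On the linear scale the level was 1.37-fold, 1.64-fold and 1.48-fold lower. Leaving out animal 53 of the 198 mg/kg-d group took the first of these calls to an FDR of 0.065.

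Rhbg codes for an ammonium transporter of the Rh glycoprotein family that sits in the basolateral membrane of the same pericentral hepatocytes (chr3:88242874-88254739, minus strand). In the vehicle controls its FROZ level ran from 2.25 through a median of 2.67 to 3.07, and at 198 mg/kg-d from 2.02 through 2.15 to 2.33. The middle dose ran from 1.48 through 2.00 to 2.28, and the highest dose from 1.71 through 2.10 to 2.65. The dosed groups sat lower but each overlapped the lowest controls. The log2 fold change was -0.50 ± 0.16 (SE, FDR 0.092) at 198, -0.69 ± 0.16 (FDR 0.0017) at 313 and -0.56 ± 0.16 (FDR 0.0076) at 427 mg/kg-d by limma. With an offset of 0.1 in place of 1 CPM the last 2 were -0.85 and -0.68. Of the 50-base windows in the annotated Rhbg transcripts, 60.4% also lie in transcripts of 1 other gene, Gm38392, so reads of the pair may not be separable.

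Oat codes for ornithine aminotransferase, a mitochondrial enzyme that turns ornithine into glutamate and is concentrated in the pericentral zone (chr7:132557475-132576398, minus strand). The FROZ level of the vehicle controls ran from 7.10 to 7.60 with a median of 7.36, that of the 198 mg/kg-d group from 6.62 to 7.27 with a median of 7.01, and that of the 313 mg/kg-d group from 6.73 to 7.24 with a median of 6.86. At 427 mg/kg-d it ran from 7.09 to 7.49 with a median of 7.21, close to the range of the controls. The log2 fold change was -0.39 ± 0.11 (SE, FDR 0.068), -0.44 ± 0.11 (FDR 0.0041) and -0.09 ± 0.11 (FDR 0.61) by limma. The step from 313 to 427 mg/kg-d was 0.36 ± 0.11 on the log2 scale and did not pass (limma FDR 0.077, a comparison chosen after its values were seen). None of the 10 genes passed in that comparison, in which 3.07% of all genes were called and 2 of the 10, Oat and Znrf3, had an unadjusted limma p under 0.05. Without animal 75 of the 313 mg/kg-d group 1 gene passed.

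**Figure D1:**
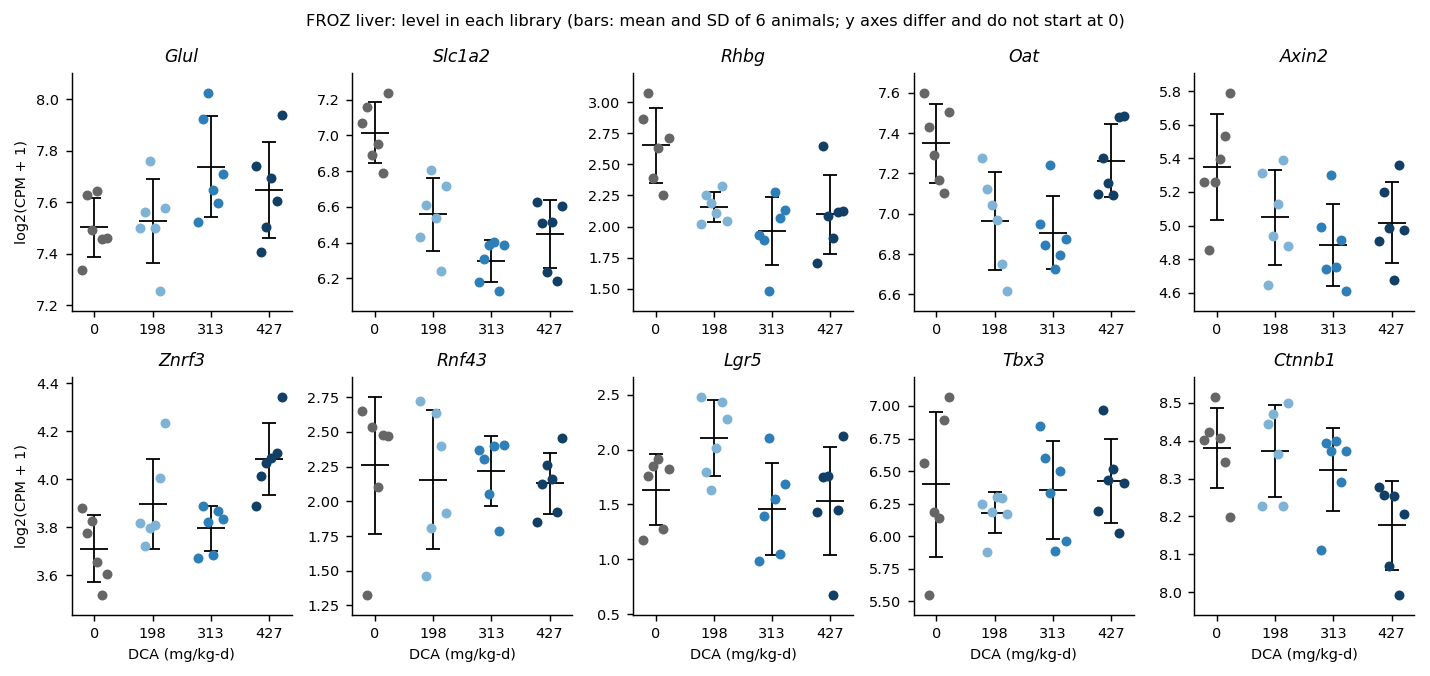
Level of each of the 10 genes in the 24 FROZ libraries, as log2(CPM + 1) on the y axis, by DCA dose in mg/kg-d on the x axis. Each point is 1 animal and bars give the mean and SD of 6 animals. Slc1a2 at 313 and 427 mg/kg-d lies wholly below the vehicle controls and Znrf3 at 427 mg/kg-d lies wholly above them, while every Glul group overlaps the controls.

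The enzyme and the 3 genes that supply it were next set against each other within each FROZ library, where the scaling of the library largely cancels. The difference of Slc1a2 minus Glul was -0.49 ± 0.20 (SD, n = 6) in the vehicle controls, -0.97 ± 0.07 at 198, -1.44 ± 0.16 at 313 and -1.20 ± 0.19 at 427 mg/kg-d, all on the log2(CPM + 1) scale. All 6 FROZ libraries of every dosed group were below the lowest control. Rhbg minus Glul went from -4.85 ± 0.30 in the controls to -5.37 ± 0.24, -5.77 ± 0.44 and -5.55 ± 0.45, with 5, 6 and 5 of 6 libraries below the lowest control. Oat minus Glul went from -0.15 ± 0.27 to -0.56 ± 0.25, -0.83 ± 0.17 and -0.38 ± 0.22, with 4, 6 and 2 of 6 libraries below the lowest control. At 313 mg/kg-d the dosed mean minus the control mean was -0.95 for Slc1a2, -0.93 for Rhbg and -0.68 for Oat. In FFPE, Slc1a2 minus Glul was -0.79 ± 0.31 in the controls and -1.10 ± 0.84, -2.42 ± 1.86 and -1.63 ± 0.49 at the 3 doses, with 4, 5 and 6 of 6 libraries below the lowest control and 2 libraries at 198 mg/kg-d above the highest. Oat minus Glul did not follow its FROZ course in FFPE, with dosed means minus the control mean of 0.41, -0.13 and 0.56, and 3, 1 and 3 of 6 libraries above the highest control. These differences were picked after the values were seen and are given without a test. How often other genes minus Glul lie wholly below the controls was not counted. The uncalled change of Glul itself, 0.24 at 313 mg/kg-d in FROZ, enters each difference.

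**Figure D2:**
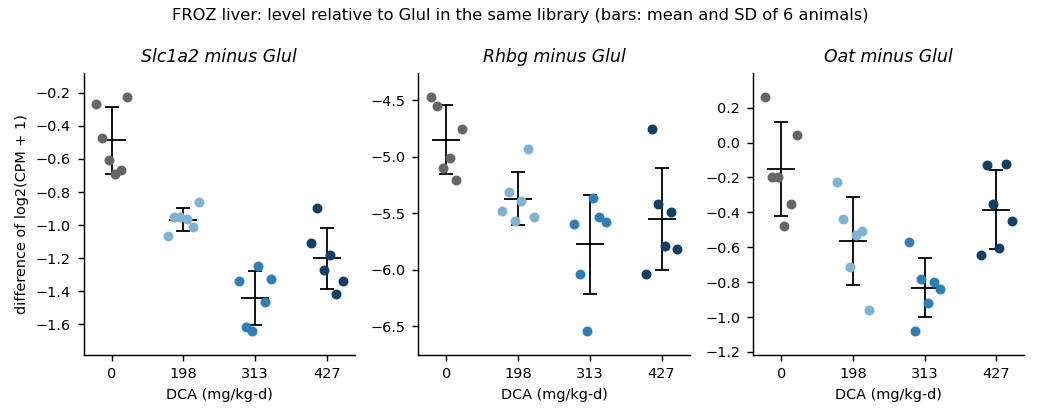
Difference of log2(CPM + 1) between Slc1a2, Rhbg or Oat and Glul in the same FROZ library (y axis) by DCA dose in mg/kg-d (x axis), with 1 point per animal and bars for the mean and SD of 6 animals. All 18 dosed libraries are below the lowest control for Slc1a2, as are the 6 libraries at 313 mg/kg-d for Rhbg and Oat. The share of all genes for which this holds was not counted.

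Axin2, a scaffold of the complex that marks beta-catenin for destruction, is induced by the pathway in most tissues and serves as its general readout (chr11:108917828-108950783, plus strand). In FROZ its level ran from 4.85 through a median of 5.33 to 5.79 in the vehicle controls, from 4.65 through 5.03 to 5.39 at 198, from 4.61 through 4.83 to 5.30 at 313 and from 4.67 through 4.98 to 5.36 at 427 mg/kg-d. The groups overlapped, with the dosed medians below the control median. The log2 fold change was -0.30 ± 0.15 (SE, FDR 0.30), -0.46 ± 0.15 (FDR 0.020) and -0.33 ± 0.15 (FDR 0.091) by limma. Without animal 8 of the vehicle controls the middle FDR was 0.062, and with median-ratio scaling the change at 427 mg/kg-d was -0.47 with an FDR of 0.017.

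Znrf3 and Rnf43 code for a pair of membrane E3 ubiquitin ligases that remove Frizzled receptors from the cell surface, and Lgr5 codes for an R-spondin receptor that counteracts them. Znrf3 (chr11:5276329-5444847, minus strand) had a FROZ level of 3.52 to 3.88 in the vehicle controls (median 3.71), 3.72 to 4.23 at 198 (median 3.81), 3.67 to 3.89 at 313 (median 3.83) and 3.89 to 4.34 at 427 mg/kg-d (median 4.08). The 6 animals at 427 mg/kg-d were all above the highest control, by a narrow margin for the lowest of them. Its log2 fold change was 0.19 ± 0.10 (SE, FDR 0.34), 0.08 ± 0.10 (FDR 0.57) and 0.37 ± 0.10 (FDR 0.0049) by limma. With median-ratio scaling the last value was 0.24 with an FDR of 0.070, so this call rested on the scaling. Rnf43 (chr11:87663087-87735539, plus strand) differed from the controls by -0.10, -0.04 and -0.13 on the log2 scale, and none of the 3 passed (limma FDRs of 0.86, 0.91 and 0.69). Its 95% interval at 427 mg/kg-d ran from -0.56 to 0.30. Lgr5 (chr10:115450314-115587780, minus strand), with a median of 20 reads, ran from 1.18 to 1.91 in the controls and from 1.63 to 2.48 at 198 mg/kg-d. Its log2 fold change was 0.47 ± 0.22 (SE, FDR 0.26) at that dose, -0.17 at 313 and -0.10 at 427 mg/kg-d by limma, and none passed.

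Tbx3 codes for a T-box repressor that beta-catenin switches on in pericentral hepatocytes (chr5:119670534-119684724, plus strand). It had the widest spread of the 10 genes among the vehicle controls, from 5.55 through a median of 6.37 to 7.07, and its log2 fold changes of -0.22, -0.05 and 0.02 did not pass (limma FDRs of 0.61, 0.89 and 0.94). Ctnnb1 (chr9:120933400-120960507, plus strand) ran from 8.20 through a median of 8.40 to 8.52 in the controls and from 7.99 through 8.23 to 8.28 at 427 mg/kg-d, where 5 of the 6 controls were above all dosed animals. Its log2 fold change was -0.01 ± 0.07 (SE, FDR 0.97), -0.06 ± 0.07 (FDR 0.61) and -0.21 ± 0.07 (FDR 0.036) by limma, the smallest of the called changes. That call was lost in 6 of the 24 fits that left out 1 animal (controls 3, 4, 5 and 6 and animals 99 and 101 of the 427 mg/kg-d group), where the FDR reached 0.093. With median-ratio scaling it was -0.35 with an FDR of 0.0011.

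A slope on dose passed for 5 of the 10 genes in FROZ, against 32.2% of all genes. Per 100 mg/kg-d the slope was -0.15 ± 0.03 (SE) on the log2 scale for Slc1a2 (limma FDR 7.08e-05), -0.14 ± 0.04 for Rhbg (FDR 0.0036), -0.09 ± 0.03 for Axin2 (FDR 0.044), -0.04 ± 0.02 for Ctnnb1 (FDR 0.049) and 0.07 ± 0.02 for Znrf3 (FDR 0.019). For Slc1a2, Rhbg and Axin2 the lowest mean was at 313 and not at 427 mg/kg-d. Leaving out 1 animal ended the Axin2 call in 13 and the Ctnnb1 call in 17 of 24 fits, and the Znrf3 call in 2 (without control 7 or animal 102, FDR up to 0.052), while Slc1a2 and Rhbg passed in all of them. With median-ratio scaling the Znrf3 slope was 0.04 with an FDR of 0.24, and the other 4 still passed.

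**Figure D3:**
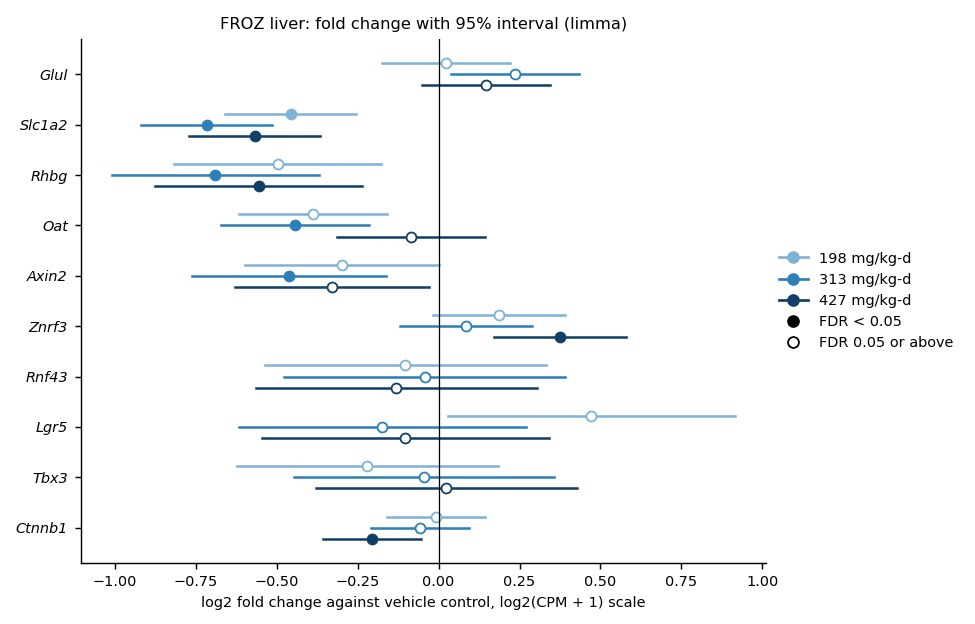
Log2 fold change of each of the 10 genes against the vehicle controls in FROZ (x axis, on the log2(CPM + 1) scale) at 198, 313 and 427 mg/kg-d, with the 95% interval of limma as a line. Filled points passed an FDR of 0.05: 1 gene at 198, 4 at 313 and 4 at 427 mg/kg-d, with Znrf3 the only one on the right.

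In RefSeq's promoter windows (GRCm38.p6, the assembly of mm10), 6 of the 10 genes had an entry. The 250 bases before the transcript start were searched on both strands for the core words of TCF/LEF, CTTTGA and CTTTGT, the nuclear partners of beta-catenin. Slc1a2 was the only one of the 6 with a match, and it had 2. Oat, Axin2 and Ctnnb1, each also called lower in FROZ at some dose, had none, nor had Glul and Rnf43. Its window, chr2:102706188-102706437 on the plus strand, belongs to a start 48199 bases inside the annotated gene. The Glul window is chr1:153899679-153899928 and that of Axin2 is chr11:108920099-108920348, both on the plus strand. The 3 sequences are shown because Slc1a2 fell while the co-located Glul did not pass, and Axin2 is the general target of the pathway. Capitals mark the words, of which the first is CTTTGA on the other strand and starts 206 bases before the start, and the second is CTTTGA as written, 77 bases before it.
Slc1a2: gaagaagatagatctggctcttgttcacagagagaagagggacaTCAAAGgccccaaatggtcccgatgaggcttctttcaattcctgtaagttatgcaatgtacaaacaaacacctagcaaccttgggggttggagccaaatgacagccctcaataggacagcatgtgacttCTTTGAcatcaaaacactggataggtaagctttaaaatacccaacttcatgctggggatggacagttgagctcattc
Glul: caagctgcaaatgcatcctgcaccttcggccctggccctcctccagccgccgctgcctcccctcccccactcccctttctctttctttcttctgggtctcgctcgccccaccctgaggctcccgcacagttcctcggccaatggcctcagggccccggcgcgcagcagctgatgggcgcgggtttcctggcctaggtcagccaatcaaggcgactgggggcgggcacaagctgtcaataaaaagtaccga
Axin2: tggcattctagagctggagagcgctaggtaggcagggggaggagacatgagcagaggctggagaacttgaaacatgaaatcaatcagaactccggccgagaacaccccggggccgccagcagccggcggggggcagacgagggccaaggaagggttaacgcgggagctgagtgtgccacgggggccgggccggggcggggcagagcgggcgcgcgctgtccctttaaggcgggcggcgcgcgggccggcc
Of all 32851 promoter windows, 27.6% held at least 1 of the words and 5.15% held 2 or more in the same 250 bases. A match is a matter of letters only, and sequence outside these windows was not searched. Use of the Slc1a2 start in these livers and a link between the words and the changes were not tested.

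The remainder of the pathway was read from 5 lists of Wnt genes (68 symbols, 48 in the FROZ table). At 313 mg/kg-d, 6 of the 48 were called higher and 6 lower, 25% in all beside the 26.7% of all genes, and with median-ratio scaling 4 were higher and 12 lower. At 427 mg/kg-d, 10 of the 48 were called higher and 4 lower, 29.2% in all, close to the 30.1% of all genes. With median-ratio scaling the counts were 4 higher and 7 lower. None of the 5 listed ligand and secretion genes passed at 427 mg/kg-d, nor did any of the 7 secreted and other inhibitors. At 313 mg/kg-d the ligand Wnt5b (-0.80 ± 0.19 SE, limma FDR 0.0025) and the secreted inhibitor Sfrp1 (-0.57 ± 0.21, FDR 0.040) were called lower, 1 gene of each list, both named after their values were seen. Of 9 receptors at 427 mg/kg-d, Fzd8, a Frizzled receptor, was lower (log2 fold change -1.10 ± 0.24 SE, limma FDR 9.31e-04). The R-spondin receptor Lgr4 was also lower at that dose (-0.29 ± 0.10, FDR 0.023). The co-receptor Lrp6 was higher (0.34 ± 0.08, FDR 0.0016). Of 16 cytoplasmic genes 5 were called higher at 427 mg/kg-d. They were led by Fbxw11, a subunit of the ligase that degrades beta-catenin (0.62 ± 0.10, FDR 3.15e-05). Next came Gsk3b, a kinase that marks beta-catenin for degradation (0.52 ± 0.07, FDR 3.66e-06). Dvl1, which relays the receptor signal, followed (0.37 ± 0.12, FDR 0.019). With median-ratio scaling 2 of the 16 were higher and 3 lower at 427 mg/kg-d. The lower ones were Amer1 (-0.34, limma FDR 0.040), Csnk1d (-0.25, FDR 0.035) and Btrc (-0.21, FDR 0.049), named after their values were seen.

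Of 11 nuclear genes, 4 were called higher and 2 lower at 427 mg/kg-d. Tcf7l2, the main TCF factor of adult liver, rose in FROZ at all 3 doses, by 0.61 ± 0.11 (SE, limma FDR 0.0058) at 198, 0.44 ± 0.11 (FDR 0.0045) at 313 and 0.57 ± 0.11 (FDR 3.01e-04) at 427 mg/kg-d on the log2 scale. Among the Groucho co-repressors, which bind TCF factors when beta-catenin is absent, Tle4 was higher (0.81 ± 0.14, FDR 4.40e-05) and Tle1 was lower (-0.56 ± 0.10, FDR 9.44e-05). Tcf7l1 was higher (0.47 ± 0.15, FDR 0.021), and the beta-catenin cofactor Bcl9l was lower (-0.33 ± 0.10, FDR 0.0089). With median-ratio scaling Fzd8, Lgr4, Tle1 and Bcl9l were still called lower and Fbxw11, Gsk3b, Tcf7l2 and Tle4 still higher, and Lrp6, Dvl1 and Tcf7l1 no longer passed.

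Pericentral genes outside the 10 moved in both directions. Of 20 further pericentral genes in FROZ, most of them enzymes of drug and bile acid metabolism, none was called at 198 mg/kg-d. The middle dose had 4 higher and 9 lower, and the highest dose had 4 higher and 7 lower. Called genes thus made up 65% and 55% of the list at these 2 doses, above the 26.7% and 30.1% of all genes. The largest decreases at 427 mg/kg-d were of Cyp2c50, a cytochrome P450 (log2 fold change -1.21 ± 0.42 SE, limma FDR 0.031), the sulfotransferase Sult5a1 (95% interval -1.35 to -0.65, FDR 5.04e-05) and the carboxylate transporter Slc13a3 (-0.99 ± 0.15, FDR 1.64e-05). Sult5a1 was near the floor, with a mean of 1.24 CPM in the controls and 0.08 CPM at 427 mg/kg-d. At that dose 2 of 6 libraries were at 0, and 1 read is 0.102 to 0.15 CPM in FROZ. The largest increases were of Aldh1a1, a retinal dehydrogenase (1.17 ± 0.21, FDR 1.03e-04), Cyp7a1, the rate-limiting enzyme of bile acid synthesis (1.02 ± 0.33, FDR 0.020), and Nr1i3, the nuclear receptor CAR (0.59 ± 0.14, FDR 0.0025). With median-ratio scaling 2 were higher and 10 lower at 427 mg/kg-d, and Cyp7a1 no longer passed (0.88, FDR 0.056). The median log2 fold change of the 20 was -0.32 at 313 and -0.19 at 427 mg/kg-d.

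Of 17 periportal genes, which mark the opposite end of the lobule, 1 was called higher and 4 lower at 313, and 2 higher and 4 lower at 427 mg/kg-d. These were 29.4% and 35.3% of the list, near the 26.7% and 30.1% of all genes. The decreases at 427 mg/kg-d were led by Pigr, the polymeric immunoglobulin receptor (log2 fold change -1.49 ± 0.17 SE, limma FDR 2.41e-07), Pck1, which commits carbon to glucose synthesis (-0.72 ± 0.21, FDR 0.010), and E-cadherin, Cdh1 (-0.61 ± 0.13, FDR 5.59e-04). Among the higher calls was Asl of the urea cycle (0.27 ± 0.10, FDR 0.036), which no longer passed with median-ratio scaling (0.13, FDR 0.41). Thus lower calls outnumbered higher ones in the lists of both zones at 313 and 427 mg/kg-d. Of all genes 20.5% and 22.7% were called higher and 6.15% and 7.33% lower at these doses. With median-ratio scaling lower calls still outnumbered higher ones in both lists, with 10 periportal genes lower at 313 mg/kg-d. Of all calls with that scaling 48.6% were higher at 313 and 50.0% at 427 mg/kg-d.

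How many markers of other cells were called depended on the scaling, and their part in these results was not tested. All 7 sinusoidal endothelial markers were listed, and Lyve1 was at 0 in 1 vehicle library, the only marker of these lists with a 0 in FROZ. Stab2 was called lower at 313 and 427 mg/kg-d, where 6.15% and 7.33% of all FROZ genes were called lower. The summed level of the 7 was 182 to 202 CPM in the vehicle controls, 151 to 186 CPM at 313 and 155 to 174 CPM at 427 mg/kg-d. The last group thus lay below all controls, and at that dose 14.7% of single FROZ genes had groups without overlap. With median-ratio scaling 3 of the 7 were called lower at 313 and 4 at 427 mg/kg-d. They were Stab2, Clec4g, Kdr and, at the upper dose, Cdh5 (limma FDR 0.031). Of all calls with that scaling 48.6% and 50.0% were higher at these doses, and their share of all genes is not given here. Of 5 hepatocyte markers Fgb was lower and Hnf4a higher at 427 mg/kg-d, and their sum was 29700 to 33600 CPM in the controls and 24400 to 28300 CPM at 427 mg/kg-d. Of 5 Kupffer cell markers 2 were lower at that dose (Adgre1 and Cd5l), of 5 stellate cell markers 1 (Dcn), and of 3 cholangiocyte and 2 lymphocyte markers none. The sums of these 4 lists overlapped between the controls and each dose. With median-ratio scaling Rgs5 of the stellate list (FDR 0.011), Spp1 of the cholangiocyte list (FDR 0.046) and the hepatocyte marker Apoa1 (FDR 0.029) were also called lower at 427 mg/kg-d, and Hnf4a no longer passed (FDR 0.053). The markers called with that scaling were named after their values were seen.

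In FFPE none of the 5 listed genes passed at any dose, where 0.0599%, 1.08% and 2.41% of the 6673 genes passed, and none had a called slope, against 2.17% of all genes. Of their 15 comparisons with the vehicle controls 2 had an unadjusted limma p under 0.05, and of their 5 slopes 1 did (Slc1a2, -0.23 ± 0.10 SE per 100 mg/kg-d). The median log2 fold change of all FFPE genes was -0.19, -0.12 and 0.18 at the 3 doses. With median-ratio scaling it was -0.18, -0.14 and 0.07. The closest was Slc1a2 at 313 mg/kg-d. Its FFPE level lay between 6.87 and 7.97 in the controls (median 7.29), between 6.12 and 7.27 at 198 (median 6.50), between 3.39 and 6.68 at 313 (median 6.38) and between 5.86 and 7.01 at 427 mg/kg-d (median 6.82). All 6 animals at 313 mg/kg-d were below the lowest control, as was the case for 1.57% of all FFPE genes at that dose in either direction, while the other doses overlapped the controls. The log2 fold change was -0.66 ± 0.42 (SE, FDR 0.54), -1.59 ± 0.42 (FDR 0.0503) and -0.68 ± 0.42 (FDR 0.80) by limma. Animals 73 and 75, whose FFPE libraries had 1442 and 901 genes at 0, had the lowest values of 4.83 and 3.39. Without the 8 libraries with over 500 genes at 0 the changes were -0.69, -0.64 and -0.54, none of them called. At 427 mg/kg-d groups without overlap were found for none of the 5 genes and for 4.48% of all FFPE genes.

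The other FFPE values were wide. Oat ran from 6.11 through a median of 6.64 to 7.01 in the controls and from 6.80 through 7.38 to 7.68 at 427 mg/kg-d. Its log2 fold change was 0.73 ± 0.35 (SE, limma FDR 0.56). When the 427 mg/kg-d group and the controls were fitted alone the same change had an FDR of 0.043. Glul changed by -0.36 ± 0.32, 0.03 ± 0.32 and 0.17 ± 0.32 on the log2 scale, with a 95% interval of -0.48 to 0.81 at 427 mg/kg-d. Axin2 changed by 0.05 ± 0.41, 0.04 ± 0.41 and 0.06 ± 0.41, and Ctnnb1 by 0.00 ± 0.33, 0.29 ± 0.33 and 0.24 ± 0.33. The SD within a dose group was 0.39 to 1.32 for Slc1a2 in FFPE and 0.12 to 0.20 in FROZ, and 0.53 to 0.80 for Axin2 in FFPE against 0.24 to 0.31 in FROZ.

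**Figure D4:**
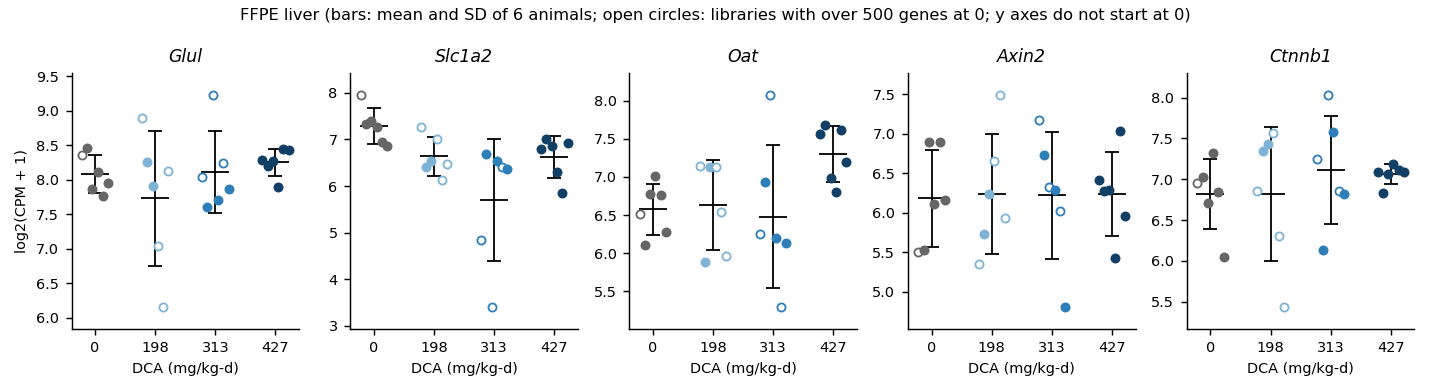
Level of the 5 genes listed in FFPE, as log2(CPM + 1) on the y axis, by DCA dose in mg/kg-d on the x axis. Each point is 1 animal, open circles are the 8 libraries with over 500 genes at 0, and bars give the mean and SD of 6 animals. The 6 Slc1a2 values at 313 mg/kg-d lie below all controls, with the 2 lowest in such libraries.

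Whether the response differed between preservations was tested within animals, on FFPE minus FROZ, since the 2 tables were scaled separately. None of the 5 genes passed at any dose, and of the 6591 shared genes 0.0303%, 0% and 0.0303% passed at the 3 doses in turn. At 313 mg/kg-d, where no gene passed, 487 genes had an unadjusted limma p under 0.05. For Slc1a2 the difference in response was -0.20 (95% interval -1.13 to 0.73), -0.88 (-1.81 to 0.05) and -0.11 (-1.04 to 0.82), with limma FDRs of 0.88, 0.65 and 1.00. For Oat at 427 mg/kg-d it was 0.81 (0.07 to 1.55, FDR 1.00), the only 1 of the 15 differences with an unadjusted limma p under 0.05. These intervals are wider than the FROZ changes themselves.

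An animal that was high for a gene in FROZ was not shown to be high in FFPE. After the dose means were removed, Pearson's r over the 24 animals was 0.52 for Axin2 (Spearman's rho 0.47), 0.42 for Glul (0.34), 0.37 for Oat (0.29), 0.07 for Slc1a2 (0.09) and 0.07 for Ctnnb1 (0.00). The 2-sided permutation p was 0.017, 0.062, 0.090, 0.70 and 0.76 for r, and 0.031, 0.12, 0.21, 0.65 and 1.00 for rho, in the same order. None passed after adjustment over all 6591 shared genes, of which 0.668% did (Axin2, FDR 0.29, then 0.47, 0.54, 0.92 and 0.95). Without the 2 animals farthest from the FROZ median r was 0.53, 0.27, 0.33, 0.14 and 0.10.

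Among the 10 genes in FROZ, with dose means removed, r over the 24 libraries ranged from -0.64 (Axin2 and Ctnnb1) to 0.56 (Slc1a2 and Ctnnb1). The genes most like Glul and each member called at 427 mg/kg-d were sought among 5863 others with a mean of at least 10 CPM, as a description over libraries that share dose, depth and assay. Glul was most like Nutf2, Cdk4 and Sptlc2 (r of 0.77, 0.76 and 0.75). Slc1a2 was most like Zcchc8, Brcc3 and Paxbp1 (0.84, 0.83 and 0.83), and Ctnnb1 like Cr1l, Dbt and Smoc1 (0.89, 0.86 and 0.86). Znrf3 was most like Hus1, Ifrd1 and Myc (0.70, 0.67 and 0.60), and Rhbg, sought among 5864 genes, like Selenos, Irs2 and Ebp (0.65, 0.64 and 0.63). No other member was among the 3 nearest genes of any of these 5. Rhbg, Rnf43 and Lgr5, with means under 10 CPM, were not among the genes searched and could not be found.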

How the data were processed

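The deposited tables hold 24 FROZ and 24 FFPE TempO-Seq libraries. According to the methods and the submitters' processing notes, the authors aligned reads to mm10 with STAR 2.6 in Partek, counted them by expectation maximization, dropped genes whose geometric mean did not exceed 1, scaled the rest to CPM and deposited log2(CPM + 1), in log2 units. Counts were not used here. Reads per library were recovered as 1000000 over the CPM step of the low values (97.0% of low values in the median FROZ and 88.2% in the median FFPE library within 0.1 reads of a whole number). Each dose was compared with vehicle within a table by limma 3.58.1 (R 4.3.3), all 4 groups in 1 fit, trended prior, Benjamini-Hochberg over all genes, FDR below 0.05. Slopes used dose as a number. Correlations used 100000 permutations within dose. The fits were tested on simulated data.

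The numbers of the mice pair FROZ and FFPE libraries of the same animal, so the response was compared on paired differences (median r of dose-centred values 0.13 within and -0.02 between animals of a dose, own pair best in 21 of 24). All 10 genes are named. Of the other lists, genes called at 427 mg/kg-d in FROZ are named, at most 3 per direction, and the 3 genes with the highest r for Glul and called members. A periportal gene that this rule names is counted but not reported here. The genes and lists were chosen with earlier results of these data known. Alternatives were an offset of 0.1 CPM, a mean of at least 1 CPM, median-ratio scaling, an untrended prior, array weights, 2-group fits, each animal left out and, chosen after seeing the data, 8 FFPE libraries left out.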

Additional observations from a re-analysis of the deposited data

Results flagged for a closer look

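A single animal stood apart from the other 5 of its group in 2 of the 60 groups of 6 examined (10 genes in FROZ and 5 in FFPE, at 4 doses) when the gap to the nearest was divided by the range of the group and set against Dixon's 95% critical value. Chance alone marks about 1 in 20 groups. Tbx3 in FROZ at 198 mg/kg-d had its lowest value in animal 50, at 5.88 on the log2(CPM + 1) scale, against 6.17 for the next and 6.30 for the highest, a ratio of 0.699. Ctnnb1 in FFPE at 427 mg/kg-d had its lowest value in animal 98, at 6.83 against 7.07 for the next and 7.19 for the highest, a ratio of 0.663. Neither gene was called at that dose in that table with or without the animal.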

How the results depend on the processing

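Of the counts of called genes, those that moved were as follows. With median-ratio scaling 2 of the 10 genes were called at 198 mg/kg-d in FROZ (Oat joined Slc1a2) and 1 of 5 at 313 mg/kg-d in FFPE (Slc1a2, limma FDR 0.043). With an untrended prior 3 genes had a called slope in FROZ, and in a fit of 2 groups 1 gene was called at 427 mg/kg-d in FFPE. Leaving out 1 animal gave counts in FROZ of 0 to 2 at 198, 3 to 5 at 313, 3 to 4 at 427 mg/kg-d, 2 to 5 slopes, and 0 to 1 for 427 against 313 mg/kg-d, and in FFPE of 0 to 1 at 313 mg/kg-d and 0 at the other doses and for slopes. The count at 198 mg/kg-d was 0 without animal 53 and 2 without animal 49, and the FFPE count was 1 without animals 49, 53, 74, 76, 77 or 78. The number of slopes was 2 or 3 without any 1 of controls 3, 5, 6 and 7 or animals 73, 77, 97, 100 and 102. Without the pairing (no replicate block, 48 libraries) the count of response differences was 0 at each dose, as with it, so the block changed no call. Of the values of single genes under the other alternatives, 524 of 535 kept their side of the threshold, 6 lost and 5 gained a call, and no called value changed sign. With 1 animal left out it was 1989 of 2040, with 40 lost and 11 gained. Uncalled values changed sign in 22 and 70 cases. The cause of these changes was not tested. The FFPE libraries were less deep and their intervals wider than in FROZ, and a part of depth in the number of calls was not tested.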
